A study of Mus musculus with 16 samples.

Results

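Livers of Nrf2 knockout and wild-type mice were compared on 4 of the 16 two-colour arrays of the series, which made up 2 of its 8 dye-swapped experiments, experiments 1 and 4. The arrays were chosen by their titles, which pair wild type with Nrf2-null mice, and the 2 arrays of a dye swap counted as 1 replicate, so that every comparison here rests on n = 2 experiments. Total RNA from liver carried the genotype label wild type in Cy3 or Cy5 and the label Nrf2-/- in the other dye. The series also held conditional knockouts of the autophagy gene Atg7 (Atg7F/F with Cre under the Mx1 promoter, called Atg7 cKO) and double knockouts that carried Nrf2-/- as well. The growth protocol gives pIpC, which switches on the Mx1 promoter in hepatocytes and other cells, for every sample. Per the design text, mice were injected at 8 weeks of age and livers taken 4 weeks later, whereas the growth protocol speaks of 4 weeks of treatment. The labels give no strain, sex, number of animals or pooling, so p-values measure a spread between RNA samples. In the main fit this spread was pooled over the experiments that set Nrf2-/-, Atg7 cKO or double knockout against wild type. It is therefore not the spread between experiments 1 and 4 alone.

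Nrf2, the product of Nfe2l2, is a transcription factor that pairs with small Maf proteins on antioxidant response elements. Under basal conditions Keap1 and the Cul3 ubiquitin ligase hold its level low, and electrophiles or oxidants release it. In liver it is known for driving genes that conjugate, reduce and export foreign compounds, that make and use glutathione, and that store iron. The knockout studied here shows the genes that need Nrf2 at its level in livers of pIpC-treated mice, called basal here.

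The 4 arrays had median signals of 43.88 to 49.30 in either channel against median local backgrounds of 34.5 to 35, with 45.23% to 53.13% of spots well above background and 0 saturated spots. Albumin (Alb), the main secreted protein of hepatocytes, had a log2 signal of 14.40 to 14.91 in every genotype and experiment, and all 17 measured hepatocyte markers were well above background in all 8 channels. The 2 experiments differed in sex-linked transcripts, while the genotypes within each experiment matched. In experiment 1, Xist, which is made from the inactive X chromosome, had a log2 signal of 5.76 in wild type and 5.78 in knockout, and the Y-linked Ddx3y had 7.78 and 7.88. In experiment 4, Xist had 11.20 and 11.34 and Ddx3y 5.81 and 5.78. The experiments were also on different slides and in different scan runs. A difference between the experiments can therefore not be told apart from a difference by sex, slide or scan run. Across genes, the log2 ratios correlated at r = 0.588 between the dye orientations of experiment 1 (16679 genes), 0.466 between those of experiment 4 (16678 genes) and 0.245 between the experiments (16683 genes); genes are not independent replicates.

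The targeted gene was read by 3 probes on chromosome 2 (build mm9). At chr2:75513771-75513830, Nfe2l2 had log2 ratios of knockout over wild type of -3.77 and -3.80 on the arrays of experiment 1 and -3.99 and -3.95 on those of experiment 4. Its mean of -3.88 ± 0.13 (SD, n = 2) is 14.7-fold lower on this scale, and the fall passed the test (limma, adjusted p = 0.0269 over 16685 genes). The knockout signal there was well above background in 3 of 4 channels, and the offset added to weak signals shrinks the fold: the deposited log ratios gave -6.66 in experiment 1 and -6.91 in experiment 4. A probe at chr2:75513917-75513976 lay at -3.04 in experiment 1 and -3.05 in experiment 4. The probe of a separate transcript record (chr2:75529947-75530006) lay at -0.09 and -0.03, near 0 in both experiments. The other 15 measured genes of the Nrf2 switch stayed between -0.245 and 0.268 in their mean log2 ratios, among them the inhibitor Keap1 (0.02 in experiment 1 and -0.03 in experiment 4), its ligase partner Cul3 (0.07 and -0.08), the repressor Bach1 (-0.10 and -0.04) and the autophagy receptor Sqstm1 (-0.05 and 0.05), a known Nrf2 target.

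Among 16685 genes, 2 fell (0.012%) and 0 rose (0%) at an adjusted p of 0.05 in limma, while 617 had an unadjusted p under 0.05 (319 lower and 298 higher). The second was RP23-10A18.3, a gene model in the major urinary protein region on chromosome 4, with log2 ratios of -1.48, -1.35, -1.57 and -1.59 on the 4 arrays (adjusted p = 0.0269). With slide as a fixed block neither passed (adjusted p = 0.0549 for each) and 4 other genes did, Ces2b and Ces2c among them. Without experiment 1, 2, 4 or 5, 0 genes passed in limma and 363 to 766 had an unadjusted p under 0.05. Genes are therefore described here by repetition: a gene is called repeated when it was at least 1.5-fold different in the same direction in both experiments and of that sign on all 4 arrays. This is a description and not a test, and adjusted p-values given below for repeated genes are those of the same limma fit.

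By this rule 50 genes were repeated lower (0.3% of genes tested) and 9 repeated higher (0.0539%). Experiment 1 alone had 146 genes lower, of which the 50 are 34.2%, and experiment 4 had 119, of which they are 42.0%. Of all genes, 0.713% were on the lower list of experiment 4 and 0.875% on that of experiment 1. The higher lists held 76 and 58 genes, and the 9 shared ones are 11.8% and 15.5% of them. On opposite sides, 9 genes of the lower list of experiment 1 were on the higher list of experiment 4, and 8 of its higher list were on the lower list of experiment 4. Past 2-fold in both experiments were 27 lower genes and 2 higher ones, the metallothioneins Mt1 and Mt2. The scale mattered for this split: on the deposited log ratios, which add no offset to weak signals, 154 genes were repeated lower and 109 higher (58.6% lower, against 84.7% here). Of the 50 lower genes 49 were among them, as were 9 of the 9 higher, and the 205 further genes had a median log2 signal of 6.28 in the brighter genotype against 10.43 for the repeated genes.

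**Figure D1:**
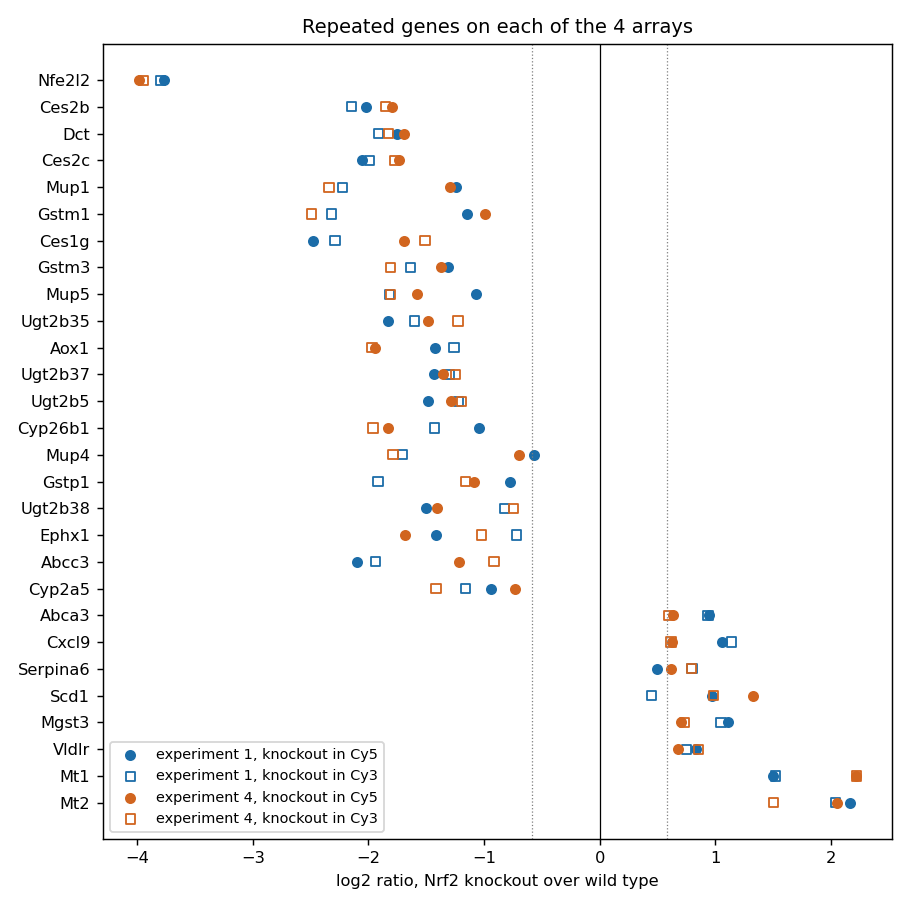
Log2 ratio of Nrf2 knockout over wild type (x axis) on each of the 4 arrays for the 20 repeated lower genes with a symbol whose smaller decrease of both experiments was largest, and 8 of the 9 repeated higher genes (y axis). Colours mark the experiments, filled circles the knockout in Cy5, open squares the knockout in Cy3, and dotted lines 1.5-fold. Nfe2l2 sits between -3.99 and -3.77, while Mup1, Mup4 and Gstm1 differ more between dyes than between experiments.

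**Figure D2:**
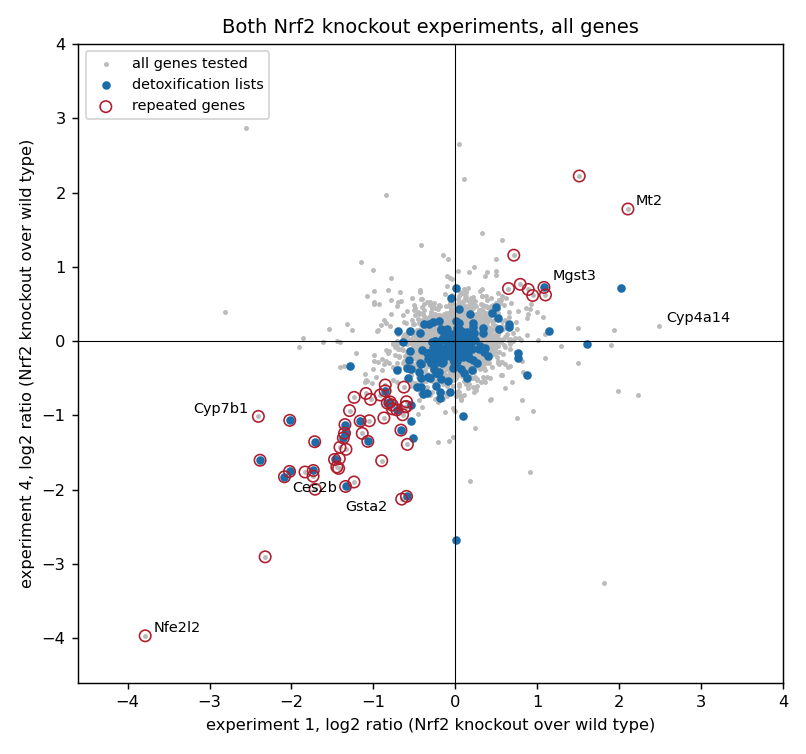
Log2 ratio of Nrf2 knockout over wild type in experiment 1 (x axis) and experiment 4 (y axis) for every gene tested, with members of the detoxification lists in blue and repeated genes ringed in red. The 50 repeated lower genes lie at the lower left and the 9 repeated higher ones at the upper right; Cyp4a14 is far from 0 in experiment 1 only.

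Proximal promoters of the repeated lower genes were searched for the core of the antioxidant response element, TGACNNNGC, on both strands in the 250 bases upstream of the start (RefSeq sequences, build GRCm38.p6). Of 33 repeated lower genes with a promoter entry, 5 held a match (15.2%), against 1458 of 10599 tested genes with an entry (13.8%) and 10.2% of all 32851 promoters in the table. The share among the repeated genes, which counts the targeted gene Nfe2l2 itself, was thus near that of all tested genes. The 5 stretches are shown because these are the members in which the motif stands close to the start. They are the genes of Nrf2 itself, of UDP-glucose dehydrogenase (Ugdh), which makes the sugar donor for glucuronidation, of the oxidoreductase Htatip2, of the membrane protein gene Lrtm1, and of pirin (Pir), an iron-binding nuclear protein. Each is written 5′ to 3′ on the gene's strand, with matches in capitals. In Ugdh the motif was found on both strands, and in Pir on the opposite strand. The stretches lie at chr2:75704845-75704913 (minus strand), chr5:65435878-65436024 (minus strand), chr7:49759413-49759511 (plus strand), chr14:29018039-29018147 (plus strand) and chrX:164269181-164269275 (plus strand).
Nfe2l2: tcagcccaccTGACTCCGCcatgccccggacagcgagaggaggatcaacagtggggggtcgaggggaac
Ugdh: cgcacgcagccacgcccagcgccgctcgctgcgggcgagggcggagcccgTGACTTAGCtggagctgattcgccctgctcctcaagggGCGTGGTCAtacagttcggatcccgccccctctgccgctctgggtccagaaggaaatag
Htatip2: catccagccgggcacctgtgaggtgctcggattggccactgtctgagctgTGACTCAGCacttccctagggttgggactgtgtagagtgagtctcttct
Lrtm1: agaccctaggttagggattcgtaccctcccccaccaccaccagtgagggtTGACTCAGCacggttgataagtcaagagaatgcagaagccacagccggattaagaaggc
Pir: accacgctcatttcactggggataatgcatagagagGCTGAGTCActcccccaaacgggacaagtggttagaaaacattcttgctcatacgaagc
A match is a run of letters and not a shown binding site, and elements farther from the start were not searched.

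Genes of detoxification made up 19 of the 50 repeated lower genes. These lists, like the other gene lists below, were chosen with earlier results of these data known, so shares of their members describe and do not test. The 9 detoxification lists had 207 measured members of 224, of which 9.18% were repeated lower, against 0.188% of the genes outside them. Lower on all 4 arrays were 57 members (27.5%), against 8.77% of all genes, and higher on all 4 arrays were 15, against 10.2% of all genes. At an adjusted p of 0.05 in limma 0 of the 207 passed, and 52 had an unadjusted p under 0.05 (45 lower and 7 higher; 25.1%, against 3.7% of all genes). Many of these genes have close paralogs, and probes of the Ugt2b, Gstm, Gsta, Ces and Cyp2a families may read more than 1 of them.

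Glutathione transferases, which attach glutathione to electrophiles, had 4 of 25 measured genes repeated lower and 1 repeated higher, with a list median of -0.11. Gstm1 had log2 ratios of -1.15 and -2.32 on the arrays of experiment 1 and -0.99 and -2.49 on those of experiment 4. Both experiments averaged alike, at a mean of -1.74 ± 0.01 (SD, n = 2; 3.34-fold lower; limma adjusted p = 0.33), although the arrays with the knockout in Cy3 gave the larger decrease. Gstm3 lay at -1.31, -1.64, -1.37 and -1.81 (mean -1.53 ± 0.08). The pi-class enzyme Gstp1 lay at -0.78, -1.92, -1.09 and -1.16. Gsta2, an alpha-class enzyme and long-known Nrf2 target, differed between the experiments: it lay at -0.58 and -0.61 in experiment 1 and at -2.13 and -2.06 in experiment 4. Wild-type signal of Gsta2 was also lower in experiment 1 (9.36) than in experiment 4 (10.92), while the knockouts were alike (8.77 and 8.83). A probe without a gene name next to Gsta2 on chromosome 9 gave nearly the same values. Gsta1 (-0.51 in experiment 1 and -1.30 in experiment 4), Gstm4 (-0.72 and -0.38) and Gsta4 (-0.45 and -0.42) were lower in both experiments but missed the 1.5-fold rule. The microsomal Mgst3 went the other way, at 1.11, 1.05, 0.71 and 0.74 (mean 0.90 ± 0.25, 1.87-fold higher; limma adjusted p = 0.45).

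Glucuronidation and sulfation, which make compounds soluble for bile and urine, had the most repeated genes: 7 of 27 measured were repeated lower and 0 higher, with a list median of -0.21. The 5 transferases Ugt2b35, Ugt2b36, Ugt2b5, Ugt2b37 and Ugt2b38, neighbours on chromosome 5, were among them. Ugt2b35 lay at -1.83 and -1.60 in experiment 1 and at -1.48 and -1.22 in experiment 4 (mean -1.54 ± 0.26, 2.90-fold lower; limma adjusted p = 0.10). Ugt2b37 lay between -1.43 and -1.25 and Ugt2b5 between -1.48 and -1.20 on the 4 arrays. Ugt2b38 (mean -1.12 ± 0.06) and Ugt2b36 (mean -0.76 ± 0.13) completed the 5, and 6 of 6 genes tested in that stretch were below 0. Ugt2b1, next to the cluster, lay just outside the rule at -0.55 in experiment 1 and -1.08 in experiment 4. Ugdh, which supplies the UDP-glucuronate that these enzymes use and whose promoter stretch is shown above, lay at -0.79, -0.54, -1.31 and -1.09. Sult5a1, a sulfotransferase, lay between -0.84 and -0.77 on the 4 arrays. The Ugt1a genes stayed closer to 0, with Ugt1a9 at -0.59 and -0.37 and Ugt1a1 at -0.27 and -0.15 in experiments 1 and 4.

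Carboxylesterases, which split esters and amides of drugs and lipids, held the 3 lowest means of all detoxification genes. Ces2b lay at -2.02 and -2.15 in experiment 1 and at -1.80 and -1.85 in experiment 4 (mean -1.96 ± 0.18, 3.88-fold lower; limma adjusted p = 0.24). Its neighbour Ces2c on chromosome 8 was almost the same, at -2.05, -1.99, -1.74 and -1.77. Ces1g, a triglyceride hydrolase of the liver, lay at -2.48, -2.29, -1.70 and -1.51 (mean -1.99 ± 0.55). These were 3 of 16 measured members, and the list median was -0.23. Ces1f lay at -0.58 in experiment 1 and -0.50 in experiment 4, and Ces1c at 1.6 and -0.04. The low values were those of 3 members and not of the whole family.

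Among oxidases, carbonyl reductases and epoxide hydrolases, 3 of 29 measured genes were repeated lower. The molybdenum-dependent aldehyde oxidase Aox1 lay at -1.42, -1.26, -1.94 and -1.97 (mean -1.65 ± 0.44, 3.14-fold lower; limma adjusted p = 0.22). Its neighbour Aox3 lay between -0.89 and -0.78 on the 4 arrays. Microsomal epoxide hydrolase, Ephx1, lay at -1.42, -0.72, -1.68 and -1.02, lower on each array. Nqo1, the quinone reductase often used as a readout of Nrf2, lay at -0.54 in experiment 1 and -0.86 in experiment 4. Its knockout signal was dim (6.06 and 6.61 on the log2 scale), and the offset added to weak signals shrinks such ratios. Aldh1a1 (-0.41 and -0.61) and Akr1c14 (-0.40 and -0.71) were lower in both experiments, while Cbr1 (0.02 and -0.27) and Cbr3 (-0.03 and -0.23) lay near 0.

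Of 22 measured membrane transporters 2 were repeated lower, both efflux pumps. Abcc3, which carries glucuronides from the hepatocyte into blood, lay at -2.10 and -1.94 in experiment 1 and at -1.22 and -0.91 in experiment 4. The canalicular pump Abcg2 lay at -0.69, -0.74, -0.88 and -0.97. Abcc4 lay at -0.18 in experiment 1 and -0.77 in experiment 4, and Abcc2 at -0.20 and -0.06. The bile salt uptake carrier Slc10a1 (-0.25 and 0.00) and the export pump Abcb11 (0.05 and -0.08) were near 0.

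Nrf2 is known to induce glutathione synthesis, thioredoxin, NADPH and iron genes under stress. In these pIpC-treated mice they had 0 repeated genes in either direction. The glutathione synthesis list (27 measured genes) had a list median of -0.04: Gclc, the catalytic subunit of the rate-limiting enzyme, lay at -0.19 in experiment 1 and -0.69 in experiment 4, and its partner Gclm at -0.20 and -0.19. Thioredoxin and peroxiredoxin genes (22 measured) had a median of -0.07, with sulfiredoxin Srxn1 at -0.33 and -0.49 and thioredoxin reductase Txnrd1 at -0.17 and -0.52. NADPH and pentose phosphate genes (15 measured) had a median of -0.05; malic enzyme Me1 lay at -1.29 in experiment 1 but -0.34 in experiment 4. Haem and iron genes (24 measured) had a median of -0.04, with member means from -0.548 to 1.37. The summed signal of this list was 90310 in wild type and 106100 in knockout in experiment 1, and 106900 and 118600 in experiment 4. There the ferritin chains Ftl1 (-0.47 and -0.62) and Fth1 (-0.20 and -0.42) and the biliverdin reductase Blvrb (-0.43 and -0.30) were below 0 in both experiments, and the haem oxygenase Hmox1 was not (0.20 and -0.10). These values do not show that such genes were unaffected, since 1.5-fold in each experiment was asked for.

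**Figure D3:**
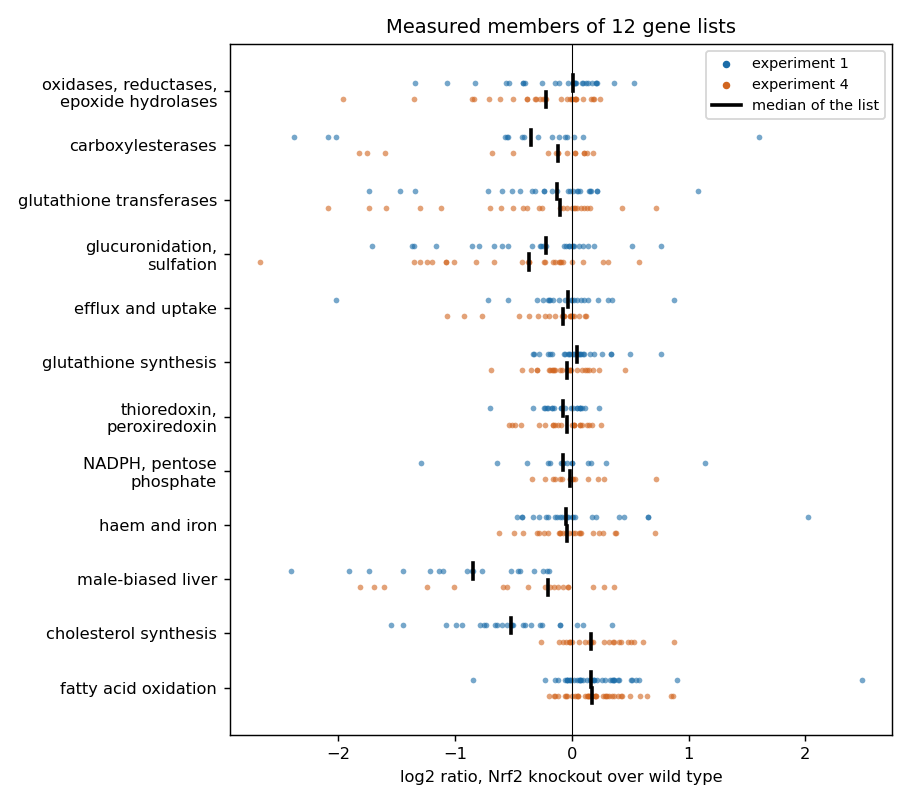
Log2 ratio of Nrf2 knockout over wild type (x axis) of each measured member of 12 gene lists (y axis), in experiment 1 (blue) and experiment 4 (orange); bars are list medians. The upper 5 lists each hold a few genes below -1, and the cholesterol synthesis medians lie on opposite sides of 0.

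The other repeated lower genes had varied roles. Cyp2a5, a cytochrome P450 that oxidises coumarin and nicotine, lay at -0.94, -1.16, -0.73 and -1.42 (mean -1.06 ± 0.02, 2.09-fold lower), the only repeated gene of 35 measured in P450 families 1 to 3. Cyp7b1, an oxysterol hydroxylase of bile acid synthesis with a male bias in liver, lay at -2.43 and -2.38 in experiment 1 and -1.04 and -0.98 in experiment 4. The retinoic acid hydroxylase Cyp26b1 lay between -1.96 and -1.04. Dct, a tautomerase best known from melanin synthesis, was among the steepest and most even, at -1.75, -1.92, -1.70 and -1.83. Htatip2 lay at -0.82, -0.72, -1.08 and -0.74, and Pir at -0.79, -0.50, -1.08 and -0.91; the motif stretches of both are shown above. Entpd5, a nucleoside diphosphatase of the endoplasmic reticulum, lay between -1.14 and -0.39. Cryl1, a crystallin-related dehydrogenase, lay between -1.31 and -0.50, and Csad, which makes the taurine precursor hypotaurine, between -0.95 and -0.67. Cebpb, a transcription factor of liver metabolism and the acute phase, lay between -0.73 and -0.51, and the growth factor receptor Egfr between -1.06 and -0.37. Closest to the rule on the inside were Serpina3k (-0.59 in experiment 1 and -1.39 in experiment 4) and Egfr (-0.86 and -0.59), and on the outside Serpina3m (-0.57 and -0.84) and Armcx6 (-1.02 and -0.56).

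Of the 50 repeated lower genes 25 lay in 7 groups of neighbours no more than 1 Mb apart, and 10 of them in the major urinary protein (Mup) region on chromosome 4 (probes from 59969824 to 61620417, mm9). No share of all genes with such neighbours was counted, so these numbers only describe. Major urinary proteins are pheromone carriers that the liver secretes in large amounts under growth hormone. All 10 genes or gene models tested in that span were repeated lower, with means from -2.61 to -1.19 and a median of -1.53. Mup1 had a log2 signal of 15.29 in wild type and 13.56 in knockout in experiment 1, and of 15.19 and 13.37 in experiment 4. Its 4 ratios were -1.25, -2.23, -1.29 and -2.34 (mean -1.78 ± 0.06, 3.43-fold lower; limma adjusted p = 0.10). Mup5 lay between -1.82 and -1.07, Mup4 between -1.79 and -0.57 and Mup6 between -1.79 and -0.71. These genes are near-identical copies, and a probe can read several, so the 10 are not 10 independent observations. Mup3, whose probe lies just beyond that span, lay at -0.45 in experiment 1 and 0.36 in experiment 4. Of the 18 measured male-biased liver genes 6 were repeated lower (0.3% of all genes were), among them Mup1, Mup4, Mup5 and Mup6 of that region, and 14 were lower on all 4 arrays (77.8%, against 8.77% of all genes). The male-biased list had a median of -0.85 in experiment 1, against -0.21 in experiment 4; for 20 female-biased genes the medians were 0.03 and -0.0012.

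The 9 repeated higher genes were led by metallothioneins, small zinc- and copper-binding proteins. Mt1 lay at 1.5 and 1.52 in experiment 1 and at 2.22 and 2.22 in experiment 4 (mean 1.87 ± 0.50, 3.65-fold higher), and Mt2 at 2.17, 2.04, 2.05 and 1.5 (mean 1.94 ± 0.23, 3.84-fold higher). Wild-type levels of Mt2 differed widely between the experiments, with log2 signals of 8.74 and 12.07, and limma's adjusted p was near 1 for both genes. The stearoyl-CoA desaturase Scd1 lay at 0.97, 0.45, 1.33 and 0.99. The lipoprotein receptor Vldlr lay between 0.67 and 0.85, and the chemokine Cxcl9, which interferon gamma induces, between 0.62 and 1.14. Serpina6, which carries corticosteroids in blood, lay between 0.50 and 0.80, and the lipid transporter Abca3 between 0.60 and 0.95. Mgst3, described above, and an uncharacterised gene model made up the rest.

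Lipid genes lay closer to 0, and partly apart between the experiments. Fatty acid oxidation genes had 15 of 40 measured members higher on all 4 arrays (10.2% of all genes were), 2 lower, and a median of 0.16 in experiment 1 and 0.18 in experiment 4; Decr2 lay at 0.52 and 0.64 and Ehhadh at 0.51 and 0.39. Cyp4a14 lay at 2.49 in experiment 1 and 0.20 in experiment 4. Cholesterol synthesis genes had a median of -0.53 in experiment 1 and 0.17 in experiment 4, with Sqle at -1.55 and 0.17. Fatty acid synthesis genes had 7 of 32 higher on all 4 arrays, among them Elovl5 (0.50 and 0.89) and Elovl2 (0.57 and 0.61). Of the 97 genes of these 3 lists 0 passed at an adjusted p of 0.05 in limma, and 12 had an unadjusted p under 0.05 (1 lower and 11 higher; 12.4%, against 3.7% of all genes).

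Markers of other liver cells had list medians near 0 in this fit, with members on both sides. The medians of the mean log2 ratio were 0.02 for Kupffer cells and macrophages (18 measured), -0.01 for endothelial cells (15), 0.03 for stellate cells (14), 0.03 for bile duct and progenitor cells (10), 0.03 for lymphocytes (14), 0.0028 for neutrophils (7) and 0.11 for erythroid cells (5). Of these genes 0 were repeated in either direction, and of all genes only 0.3% were repeated lower and 0.0539% higher. Of the macrophage markers 4 were lower (22.2%) and 3 higher on all 4 arrays, against 8.77% and 10.2% of all genes. Marco lay at -0.44 in experiment 1 and -0.51 in experiment 4, and Timd4 at 0.38 and 0.31. Of the bile duct and progenitor genes, Krt23 lay at 0.60 and 0.28 and Spp1 at -0.28 and -0.54. On the deposited log ratios the lymphocyte median was 0.29 and that of bile duct and progenitor cells -0.02, on the other side of 0. The part of these cells in the results was not tested. The summed signal of the macrophage list was 10370 in wild type and 11410 in knockout in experiment 1, and 12490 and 11820 in experiment 4. For stellate cells it was 7621 and 7498, then 7793 and 8100. Itgam and Gpnmb, Epcam, Cd8a, and Camp, Retnlg and Cxcr2 were not well above background in any of the 8 channels. In bulk liver, fewer cells of a type and less RNA per cell cannot be told apart.

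Nrf2 loss was also measured on 4 other arrays, experiments 7 and 8, where double knockout and Atg7 cKO liver RNA shared each array, and none of them belongs to experiments 1 and 4. Wild-type RNA was not on them. Lack of autophagy is known to let p62 (Sqstm1) pile up and hold Keap1, so that Nrf2 is known to be active in that background. On the deposited log ratios, 1346 of 16685 genes fell (8.07%) and 1121 rose (6.72%) with Nrf2 loss there (limma, adjusted p under 0.05). Of the 49 repeated lower genes other than Nfe2l2, 27 fell (55.1%) and 4 rose (8.16%), with a median of -1.70 against 0.008 for all genes. Both experiments were below 0 for 37 of the 49 and above 0 for 9. The shares of all genes on each side were not counted, so these counts only describe. Of the 19 detoxification genes 15 fell. Without experiment 7, 15 of the 49 fell (30.6%, against 1.45% of all genes), and without experiment 8, 25 did (51.0%, against 4.09%). With experiments 7 and 8 fitted alone, 15 fell (30.6%), and 107 of all genes passed, 98 of them lower (0.587% of all genes). The other fits also estimate the spread from experiments 1 and 4, by which the 49 genes were picked.

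Many of the repeated genes that fell without Atg7 were enzymes of foreign compound metabolism. Cyp2a5 lay at -6.34 in experiment 7 and -5.91 in experiment 8 (limma adjusted p = 0.00067), Ces1g at -4.65 and -3.89, Gstm1 at -4.14 and -4.38, Gsta2 at -3.85 and -4.20, Gstm3 at -3.22 and -4.02, and Ugdh at -3.79 and -3.42. Dct fell too (-4.34 and -2.98), as did the unnamed probe next to Gsta2 (-4.29 and -4.63). Ces2b (-3.02 and -3.23), Ugt2b35 (-3.13 and -3.23) and Aox1 (-3.23 and -2.93) also fell, as did Entpd5 (-2.76 and -2.68), Htatip2 (-2.35 and -2.16), Pir (-2.77 and -2.18) and Cryl1 (-1.90 and -1.76). The Mup region was uneven. There Mup4 (mean -1.32, limma adjusted p = 0.0497), Mup5 (-1.62, adjusted p = 0.0379) and the unnamed NAP102507-1 (-2.90, adjusted p = 0.00661) fell, while the gene model LOC100039177 (1.12, adjusted p = 0.0191) and an unnamed transcript (1.38, adjusted p = 0.0454) rose. Mup1 was at -0.65 and Mup6 at 1.80 without passing. Cebpb rose (1.5 and 1.22), and so did Sult5a1 (1.85 and 1.65). Of the 9 repeated higher genes 3 rose, Cxcl9 (2.79 and 1.86) and Abca3 (1.85 and 0.80) among them, and 1 fell, Mgst3 (-2.63 and -2.28). Mt1 (2.37 and 0.63) and Mt2 (3.38 and 1.04) were higher in both experiments and did not pass.

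**Figure D4:**
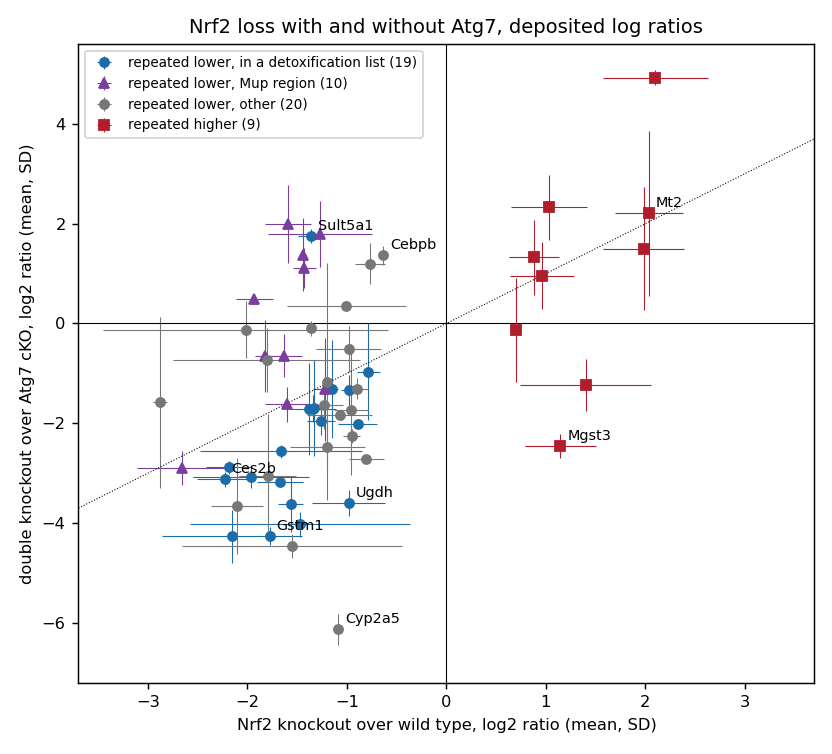
Log2 ratio of Nrf2 knockout over wild type (x axis, experiments 1 and 4) against that of double knockout over Atg7 cKO (y axis, experiments 7 and 8), means with SD (n = 2) of the deposited log ratios, for the 49 repeated lower genes other than Nfe2l2 and the 9 repeated higher ones; the dotted line marks equal values. Cyp2a5 lies lowest at -6.13 on the y axis, genes of the Mup region (violet) spread from -2.90 to 2.0 on the y axis, and Mgst3 lies at the lower right.

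The difference between the Nrf2 effects was tested as a contrast of the same limma fit. Experiments 1 and 4, by which the repeated genes were picked, are 1 side of it, so their share passing is a description only. The difference passed for 243 of all genes (1.46%) and for 9 of the 49 repeated lower genes, with the more negative value without Atg7 in 6 of them. Those 6 were Cyp2a5 (difference -5.04 log2 units), Ugdh (-2.62), Gstm1 (-2.48), Entpd5 (-1.92), Ugt2b35 (-1.51) and Htatip2 (-1.30). For Ces2b the difference of -0.89 did not pass (limma adjusted p = 0.23), nor did those of Aox1 (-1.11, adjusted p = 0.14) and Ephx1 (-0.37, adjusted p = 0.52). Genes that were not repeated in otherwise wild-type liver could fall steeply here: Srxn1 was at -4.69, Gclc at -3.22, Nqo1 at -3.81 and Txnrd1 at -2.35, all with limma adjusted p under 0.05. These are deposited log ratios without an offset, whereas the repeated rule was read on ratios with it. The sizes on the 2 scales can therefore not be compared. Over the 9 detoxification lists 85 of 207 measured genes fell and 8 rose (8.07% and 6.72% of all genes did).

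Values in Atg7 cKO over wild type, from experiments 2 and 5, are set beside these without a comparison, since the labels do not say whether wild-type RNA was shared. Gstm1 lay at 3.18 in experiment 2 and 2.67 in experiment 5, Gsta2 at 3.19 and 2.94, Cyp2a5 at 3.98 and 2.73, Ugdh at 2.52 and 1.81, Ces2b at 1.58 and 1.15, Ugt2b35 at 0.98 and 1.23, and Nfe2l2 itself at 1.26 and 1.13. Each of these 7 rose (limma, adjusted p under 0.05), as did 23.2% of all genes tested, while 16.2% fell; the genes were picked after their values were seen. Other repeated lower genes were below 0 there as well. Ugt2b5 lay at -0.53 and -1.40, Cyp7b1 at -2.90 and -1.02, and Mup1 at -5.97 and -6.03, and each of these 3 fell.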

How the data were processed

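Each array of experiments 1 to 6 carried knockout and wild-type liver RNA in Cy3 and Cy5. Those of experiments 7 and 8 carried double knockout and Atg7 cKO liver RNA. Per the file headers, mean signals and median backgrounds are intensities from Agilent's Feature Extraction (version 9.5.1.1 there, and 9.5.1 in the submitters' processing notes), protocol GE2-v5_95_Feb07, with probe coordinates on mm9. The deposited log10 ratios are of processed Cy5 to Cy3 signal and match those of the scanner files of experiments 1 to 6 within 0.005; for experiments 7 and 8 the deposited ratios alone were used. Intensities were corrected with normexp (offset 50) and loess within each array in limma 3.58.1 (R 4.3.3, data.table, version 1.17.8), turned to knockout over wild type, and dye swaps averaged. Control spots and outlier flags were left out. Probes needed signal well above background in 4 or more of the 24 channels of experiments 1 to 6, and the brightest stood for its gene. Accessions named 24844 of 41174 probes, symbols 6045, and the file's own names 10285. The fit had 3 group means over experiments 1 to 6 (3 residual degrees of freedom), with Benjamini-Hochberg adjustment. Experiments 7 and 8 entered a second fit on the deposited ratios, log10 turned to log2, with 4 group means. The fit was tested on simulated data.

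Members, rules and gene lists were chosen with earlier results of these data known. Named genes are those of the Nrf2 switch, the 15 lower and up to 10 higher repeated genes with the largest smaller change, repeated members of the detoxification lists, genes past the threshold, and up to 4 members of each other list; the further repeated and list genes were named after their values were seen. No set test was run. Alternatives were the processed log ratios, offset 10, filters, mean over probes, blocks, a dye effect on single arrays, and leaving out each experiment. The number of experiments limits the precision.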

Additional observations from a re-analysis of the deposited data

Results flagged for a closer look

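The effect of Nrf2 loss differed between liver with and without Atg7 for 11 repeated genes, by limma's contrast of both effects on the deposited log ratios (n = 2 experiments each, adjusted over all genes). They were 9 of the 49 repeated lower genes other than Nfe2l2 and 2 of the 9 repeated higher ones. Of all genes, 243 passed (1.46%). Experiments 1 and 4, by which the repeated genes were picked, are 1 side of this contrast. In 7 of the 11 genes the value was more negative without Atg7. The difference was -5.04 for Cyp2a5 (-1.09 with Atg7 and -6.13 without; adjusted p = 0.0129), -2.62 for Ugdh (-0.98 and -3.60; 0.030), -2.48 for Gstm1 (-1.78 and -4.26; 0.0407), -1.92 for Entpd5 (-0.80 and -2.72; 0.0169), -1.51 for Ugt2b35 (-1.67 and -3.18; 0.0269) and -1.30 for Htatip2 (-0.95 and -2.26; 0.0326). Mgst3 changed sides, at 1.15 with Atg7 and -2.46 without, a difference of -3.60 (adjusted p = 0.00707). In the other 4 the value was more positive without Atg7. Cebpb lay at -0.63 and 1.36 (difference 2.0, adjusted p = 0.0223), and 2 gene models of the Mup region, LOC100039177 and AI313989, at -1.43 and 1.12 (2.55, adjusted p = 0.0243) and at -1.93 and 0.49 (2.42, adjusted p = 0.0293). LOC667597 lay at 2.10 and 4.92 (2.82, adjusted p = 0.0426).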

How the results depend on the processing

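The count of 2 called genes, Nfe2l2 and RP23-10A18.3, became 1 with no filter on dim probes and 1 with experiments 1 and 4 alone, 4 with slide as a fixed block, and 11 with experiments 1 to 3 set against 4 to 6. It became 91 (67 lower, 24 higher, 34 of the 50 repeated lower genes) on single arrays with a dye effect. Leaving out each experiment gave 0 to 2, with 363 to 766 genes at an unadjusted p under 0.05 in those giving 0. Repeated lower genes numbered 154 on processed log ratios, 27 at 2-fold, and 119 or 146 with 1 experiment left out. Repeated higher genes numbered 109, 22 with offset 10, 2 at 2-fold, and 58 or 76. The direct comparison of double knockout with Atg7 cKO called 107 genes from experiments 7 and 8 alone and 307 to 1210 without either. Medians of detoxification lists that moved by more than the replicate spread were -0.1102 for transporters (processed ratios), -0.1333 (offset 10) and -0.1411 (stricter filter) for glutathione transferases, and -0.1086 (stricter filter) and -0.0976 (mean over probes) for thioredoxin genes. With 1 experiment left out they spanned -0.0736 to -0.0352 for transporters, -0.0754 to -0.0424 for thioredoxin, -0.3637 to -0.22 for glucuronidation and sulfation, -0.0401 to 0.0481 for glutathione synthesis, and -0.0513 to -0.0389 for haem and iron. On processed ratios other medians moved too, to 0.2881 for lymphocyte markers, 0.2614 for early response, 0.2287 for fatty acid oxidation, -0.147 for bile acid, 0.091 for neutrophil and -0.0233 for bile duct and progenitor genes. Over all alternatives and lists 40 of 198 medians moved. The named genes that were repeated had been picked for 1 sign on all 4 arrays, so a reversal was unlikely from the start. Among them, 549 values kept direction and side of the threshold, 15 fell short, 36 newly passed and 0 reversed. The cause of these shifts was not tested. Knockout and wild type were paired on each array of experiments 1 to 6. The groups share no experiment numbers, so experiments could not be paired across them. Weak signals limit the ratios of dim probes.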

Other observations

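Some genes changed sides between the experiments while both dye orientations of each gave the same sign. Abhd1, a hydrolase-fold gene, lay at -2.60 and -2.51 on the arrays of experiment 1 and at 2.76 and 2.99 on those of experiment 4. The fatty acid carrier Cd36 lay at 0.78 and 0.85, then at -0.73 and -0.86. Gadd45g, a stress gene, lay at 2.14 and 2.33, then at -0.79 and -0.66, and the growth regulator Phlda1 at 1.90 and 2.06, then at -0.70 and -0.64. On the same sides as Abhd1, Acss2 lay at -0.90 and -0.68, then at 0.79 and 0.91, Angptl8 at -0.90 and -0.74, then at 0.71 and 0.66, and Fdps at -1.09 and -1.07, then at 0.52 and 0.70. In all 17 genes were past 1.5-fold in opposite directions. The experiments also differ in sex-linked transcripts, slide and scan run, and the part of these in the values was not tested. The female-biased Sult3a1 lay at 0.01 in experiment 1 and -2.67 in experiment 4, and Hao2 at 0.05 and 2.66. Both were well above background in 2 of 4 channels of each genotype.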
